A study of Mus musculus with 3 samples.

Results

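The levels of 8 genes that carry mutations in Wilms tumour, a kidney cancer of childhood, were followed across the cell types of the embryonic mouse kidney. The genes were *Wt1*, *Amer1*, *Trim28*, *Rest*, *Dis3l2*, *Drosha*, *Dgcr8* and *Dicer1*, chosen by name as genes of this tumour other than *Enl* (*Mllt1*), and each was 1 of the 32285 gene rows of the count matrices. Single-cell RNA sequencing of the 3′ ends of transcripts had been performed on whole C57BL/6 kidneys at embryonic day E15.5, with 1 library per group. The Enl-WT embryos were Enl+/+ Wt1GFPCre/+ and untreated, and the Enl-T1 embryos were Enl flox-T1/+ Wt1GFPCre/+ and untreated, so that they expressed the T1 insertion mutant of the chromatin reader ENL from 1 allele in cells with a history of Cre activity. The third library, Enl-T1 TDI-11055, came from embryos of the Enl-T1 genotype whose mothers had received 100 mg/kg of TDI-11055, an inhibitor of the acyl-binding pocket of ENL, as a daily oral dose, E10.5 through E14.5. All embryos, the controls included, thus carried the knock-in that places a GFP-Cre fusion in *Wt1* and inactivates that copy, and every *Wt1* value below comes from animals with 1 intact *Wt1* allele. No Enl-WT library with TDI-11055 was analysed here, so the inhibitor was compared only within the Enl-T1 genotype.

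Wilms tumour genes fall into a few molecular groups. *Wt1* encodes a zinc-finger transcription factor of the nephron progenitors, the podocytes and part of the stroma. *Drosha* and *Dgcr8* encode the microprocessor, which cuts primary microRNA transcripts into hairpins in the nucleus, and *Dicer1* encodes the nuclease that cuts these hairpins into mature microRNAs in the cytoplasm. *Dis3l2* encodes an exonuclease that degrades uridylated RNA, including precursors of the let-7 microRNAs. *Trim28* encodes the corepressor that KRAB zinc-finger proteins recruit to silence retroelements, *Rest* a repressor of neuronal genes, and *Amer1* an X-linked scaffold of the complex that degrades β-catenin.

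UMIs (unique molecular identifiers, counts of captured RNA molecules) of each cell class were added up per library and are given as counts per 1000000 UMIs of that sum (CPM), with exact 95% Poisson intervals. Ratios of libraries have exact 95% intervals from the split of the UMIs. With 1 library per group and no map from cells to embryos, no test between groups was possible, and the intervals cover counting error only. Genotype or treatment, the embryos pooled and library depth cannot be told apart, while sex could be scored per cell and is treated with *Amer1* below. After barcodes outside 1000 to 6000 genes or with over 10% mitochondrial UMIs were dropped, there remained 5233 cells of 7186 barcodes in Enl-WT, 4144 of 6575 in Enl-T1 and 2754 of 6453 in Enl-T1 TDI-11055. The kept cells had a median of 5090, 9391 and 16931.5 UMIs in these libraries, and the libraries shared between 5 and 8 kept barcodes. Cell classes were rebuilt by clustering without the 8 genes and named "-like" from fixed markers. Nephron progenitor-like (NP-like) cells numbered 832 in Enl-WT, 749 in untreated Enl-T1 and 644 in the treated library, the order in which 3 values are given hereafter. All of the 9 progenitor markers, among them *Six2* and *Cited1*, were detected in each library, at a summed level of 1655, 694 and 1288 CPM, while the summed markers of committed nephron precursors stood at 480, 737 and 498 CPM. In Enl-T1 the committed sum was thus above the progenitor sum. The NP-like values below therefore compare cells with unlike marker levels, and "progenitors" stands for this class.

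*Wt1* (chromosome 2, 105126529 to 105173616, plus strand, GRCm38) was the member with the sharpest pattern among cell types. In Enl-WT it stood at 1127 CPM in podocyte-like cells, 169 CPM in NP-like cells (95% interval 157 to 181) and 152 CPM in committed nephron-like cells (134 to 172). The progenitor and committed levels did not differ beyond counting error. Medullary and cortical stroma-like cells followed at 57.0 and 51.5 CPM, with overlapping intervals. Proximal tubule-like cells had 20.7 CPM and distal tubule/loop of Henle-like cells 7.05 CPM. The ureteric epithelium, where *Wt1* is not known to act, held 6.81 CPM and endothelial cells 10.0 CPM. Other stroma-like cells had 30.7 CPM and renin/mesangial-like cells 12.9 CPM (6.42 to 23.0), an interval that overlapped that of the proximal tubule-like cells (14.3 to 28.9). Podocytes and progenitors thus stood above every stromal and tubular class. Ureteric tip-like cells were lowest at 1.96 CPM, and the tip and the trunk (2.45 CPM) were not distinguishable.

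**Figure D1:**
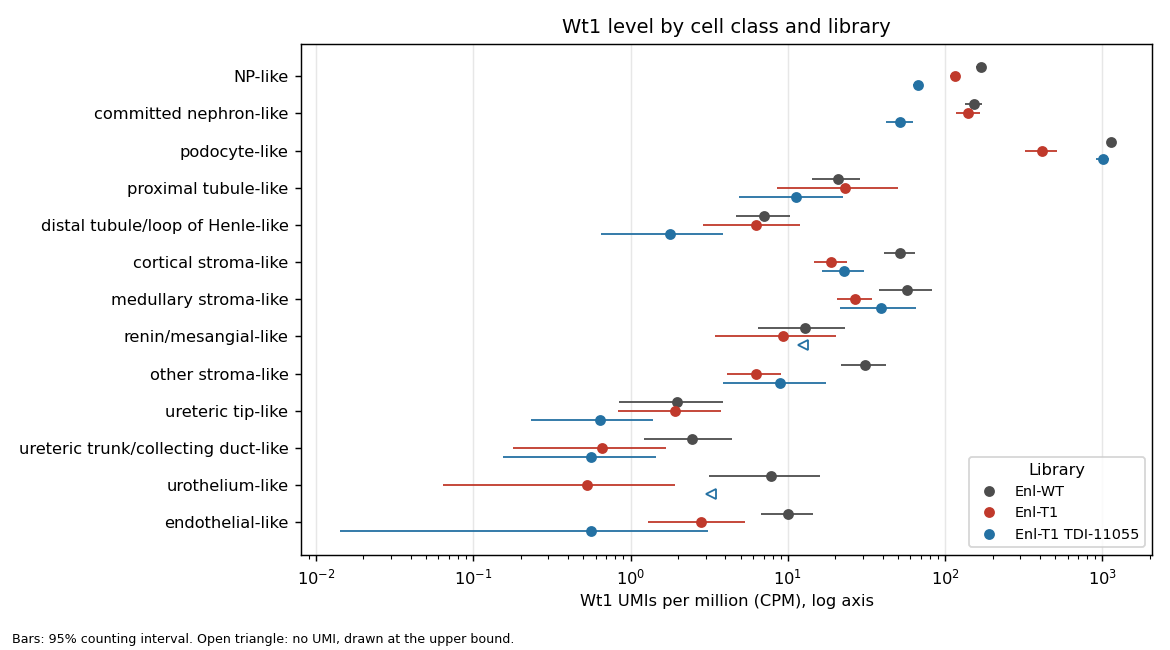
*Wt1* level (CPM, log axis) in each cell class and library, with 95% counting intervals. Podocyte-like cells of Enl-WT (1127 CPM) and Enl-T1 TDI-11055 (1004 CPM) lie farthest to the right, and NP-like cells step down from 169 to 115 to 67.3 CPM from the control to the mutant to the treated library.

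In NP-like cells the level of *Wt1* was lower in the mutant than in the control and lower again with TDI-11055. The level was 169 CPM in Enl-WT (786 UMIs), 115 CPM in Enl-T1 (1039 UMIs, interval 108 to 122) and 67.3 CPM in Enl-T1 TDI-11055 (758 UMIs, 62.6 to 72.3), and the intervals did not overlap. Against Enl-WT, the Enl-T1 level was 0.68-fold (0.62 to 0.75), and against Enl-T1 the TDI-11055 level was 0.59-fold (0.53 to 0.64). Both comparisons use the same Enl-T1 library. The inhibitor group was thus farther from Enl-WT than the untreated mutant, at 0.40-fold. For Enl-T1 over Enl-WT the log2 ratio of *Wt1*, -0.56, stood beside a median of -0.34 over genes with at least 5 CPM on average. Of those genes, 34.0% had a lower ratio, so much of this step was shared with other genes. For TDI-11055 over Enl-T1 it was -0.77 beside a median of 0.01, and 3.80% of genes had a lower ratio. Each of the 5 NP-like clusters, drawn from these same libraries, had the same order. Their ratios ran from 0.58 to 0.73 for Enl-T1 over Enl-WT and from 0.43 to 0.70 for TDI-11055 over Enl-T1. The cluster led by *Cited1* went from 153 to 100.1 to 59.8 CPM and the cycling cluster led by *Ube2c* from 185 to 107 to 58.4 CPM.

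The share of NP-like cells with a *Wt1* UMI followed the same order only at matched depth. After each cell was thinned to 2000 UMIs (shallower cells, between 2 and 11 per library, were left out), the share holding one was 29.6% (26.5 to 32.9), 18.6% (15.9 to 21.6) and 11.5% (9.16 to 14.3) in the 3 libraries. Without thinning the shares were 56.3%, 68.9% and 54.4%, at a median depth of 5087.5, 11325 and 19414 UMIs. Ureteric cells, which should lack the gene, gave 1.05%, 0.09% and 0.30% after thinning and 3.22%, 2.56% and 1.27% before, at a median depth of 5224.5, 11687 and 19318 UMIs. The progenitor shares were far above that background in every library. The ureteric level had the same order of libraries, at 6.81, 2.92 and 0.685 CPM. An unnamed ureteric cluster of 125 cells, led by the renin gene *Ren1*, held 48 of the 76, 31 of the 45 and 2 of the 13 ureteric *Wt1* UMIs, at 57.2, 46.2 and 8.74 CPM, while tip-like cells had 1.96, 1.92 and 0.635 CPM. The part of such background in the progenitor values was not tested.

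Among the other cells with *Wt1*, the committed precursors had a lower level with TDI-11055 and the stroma did not. Committed nephron-like cells had 152, 141 and 51.6 CPM. The first step there was within counting error (ratio 0.92, 0.74 to 1.15), and the second was not (0.37, 0.28 to 0.48). In that second comparison 27.9% of all tested genes of the class were lower by more than 1.5-fold and 10.1% higher, and 4.70% had a lower ratio than *Wt1*. The median depth of the class was 6610.5, 12698 and 5864.5 UMIs. Stroma as a whole went from 37.8 to 15.0 to 19.0 CPM, a ratio of 0.40 (0.32 to 0.50) for Enl-T1 over Enl-WT and of 1.27 (0.94 to 1.69) for TDI-11055 over Enl-T1. In the stroma, then, the lower level of the mutant was seen without a further step down with the inhibitor that exceeded counting error.

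Podocyte-like cells were few outside Enl-WT, with 213, 26 and 28 cells. Their *Wt1* level was 1127 CPM in Enl-WT, 410 CPM in Enl-T1 (77 UMIs, 324 to 513) and 1004 CPM in Enl-T1 TDI-11055 (428 UMIs), a ratio of 0.36 (0.29 to 0.46) for Enl-T1 over Enl-WT and 2.45 (1.91 to 3.16) for TDI-11055 over Enl-T1. The class label did not hold for the 26 Enl-T1 cells. The podocyte marker *Podxl* was at 0 in them, and the 8 podocyte markers summed to 405 CPM, against 10575 CPM in Enl-WT and 3456 CPM in Enl-T1 TDI-11055, while committed nephron markers summed to 2020, 327 and 1566 CPM. The *Wt1* values of this cluster therefore compare cells with unlike marker levels. A nephron cluster that stayed unnamed, led by *Sst*, *Abi3bp* and *Sulf1*, held 56, 244 and 38 cells of the 3 libraries. *Wt1* stood there at 404 CPM in Enl-WT, 126 CPM in Enl-T1 and 196 CPM with TDI-11055, the same high, low, middle order as in the podocyte-like cluster.

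*Wt1os*, the antisense transcript whose start lies 19 bases from the *Wt1* start on the other strand, was also highest in podocyte-like cells of Enl-WT, at 150.9 CPM (133 to 171). In NP-like cells it had 19.1 CPM in Enl-WT (15.4 to 23.6), 12.4 CPM in Enl-T1 (10.2 to 14.9) and 7.37 CPM in Enl-T1 TDI-11055 (5.87 to 9.14). Not every class had this order. Committed nephron-like cells had 12.7, 19.4 and 10.8 CPM and medullary stroma-like cells 10.2, 3.45 and 19.6 CPM, each with overlapping intervals for Enl-WT and Enl-T1. The annotated exons of *Wt1* and *Wt1os* do not overlap. The 3′ counts do not separate the *Wt1* alleles or its splice forms with and without the KTS insert, so no value here speaks to either. Among 6810 genes, the genes whose log2(CPM + 1) over 34 class-by-library sums was most like that of *Wt1* were *Vcan* (Pearson r = 0.84), *Foxc1* (0.84), *Lpin2* (0.83), *Foxd2os* (0.82) and *Eya4* (0.82). These sums share libraries and depth, and r is given as a description.

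The other 7 genes were expressed in every lineage and varied less among classes. Over the same 34 sums the level of *Trim28* ranged from 106 to 308 CPM, *Rest* from 69.9 to 319 CPM, *Drosha* from 20.01 to 67.6 CPM, *Dicer1* from 39.2 to 184 CPM, *Amer1* from 12.3 to 87.3 CPM, *Dgcr8* from 7.22 to 48.8 CPM and *Dis3l2* from 4.45 to 32.4 CPM. Levels are not per transcript length and are not compared between genes. By point value, among classes with at least 50 cells in the library, the class with the highest level changed with the library for 6 of these 7 genes. The exception was *Dicer1*, highest in urothelium-like cells of each library. Leading classes could lie within counting error of each other. In Enl-T1, *Amer1* had 60.8 CPM (43.3 to 83.2) in renin/mesangial-like and 46.4 CPM (40.2 to 53.2) in other stroma-like cells. A change of the highest class is therefore not read as a difference. Over the 34 sums *Drosha* and *Rest* were the most alike pair of members (r = 0.76), followed by *Amer1* with *Rest* (0.71), and *Dis3l2* with *Trim28* the least (-0.14). By the same measure the gene most like *Rest* was *Srek1* (0.94), that most like *Drosha* *N4bp2* (0.89), most like *Trim28* *Cct6a* (0.89), most like *Dicer1* *Ilrun* (0.89), most like *Dgcr8* *Cbx5* (0.86), most like *Amer1* *Gtf3c4* (0.86) and most like *Dis3l2* *Atf6* (0.85).

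**Figure D2:**
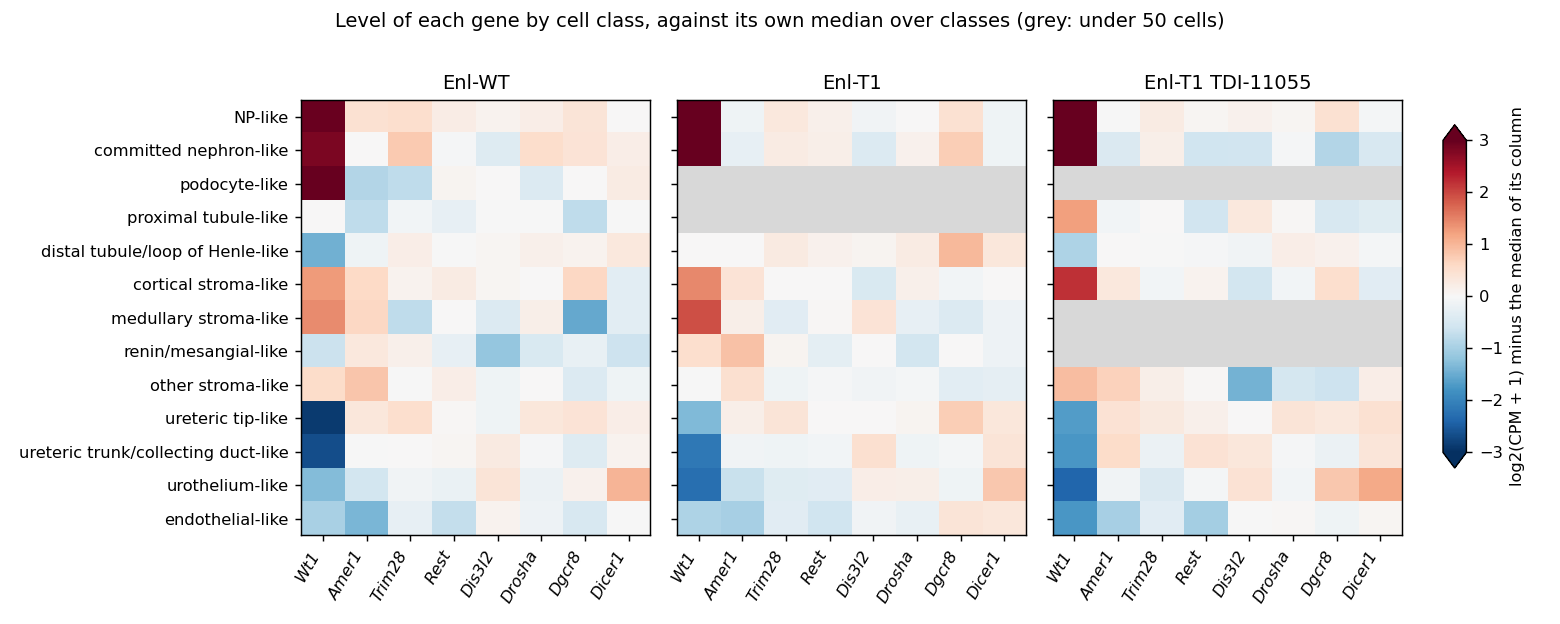
Level of each gene by cell class in each library, as log2(CPM + 1) minus the gene's median over the classes of that library, with red above and blue below it and classes under 50 cells in grey. *Wt1* shows a strong nephron pattern in each panel, while the columns of the other 7 genes are paler, with *Dicer1* above its median in the urothelium-like row and *Amer1* below its own in the endothelial-like row of each panel.

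In NP-like cells each of the 8 genes had a lower level in Enl-T1 than in Enl-WT, 6 of them by more than 1.5-fold. Among the 9832 genes tested, those whose mean level over the libraries reached 5 CPM, 32.4% were lower by more than 1.5-fold and 6.04% higher (under median-of-ratios scaling, 13.4% lower and 13.6% higher, and 3 of the 8 genes lower). The median log2 ratio of all those genes was -0.34, so part of each difference was shared with most genes, and the median of the 8 genes was -0.84. Under median-of-ratios scaling, which removes this shift, the log2 ratios kept their sign and ran from -0.15 for *Trim28* and -0.22 for *Wt1* to -0.81 for *Amer1*. The 2 genes that did not pass 1.5-fold were *Wt1* and *Trim28*.

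**Figure D3:**
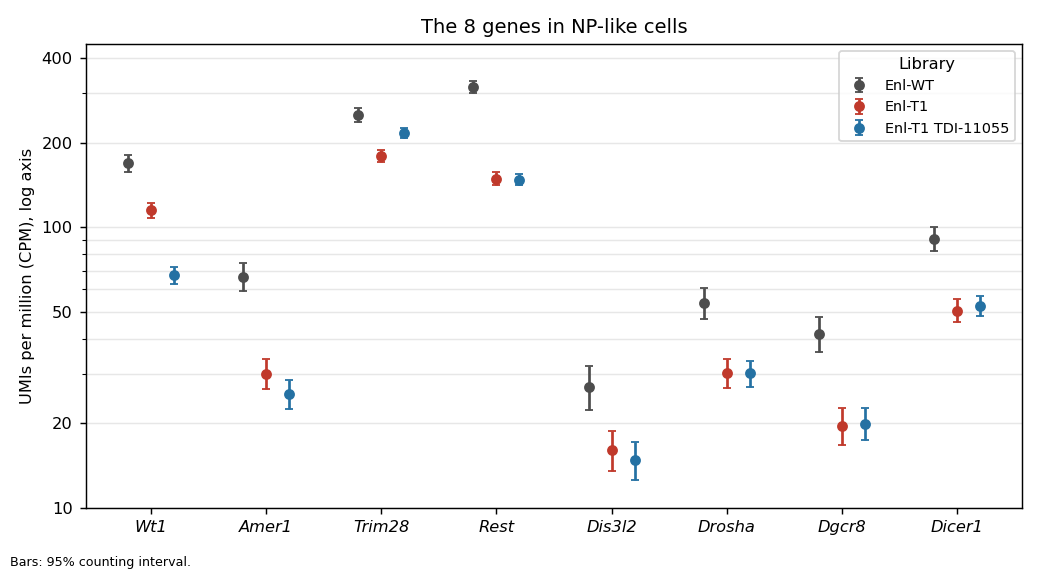
Level (CPM, log axis) of each of the 8 genes in NP-like cells of the 3 libraries, with 95% counting intervals. For all genes the Enl-WT point is the highest, and only *Wt1* has a clearly lower Enl-T1 TDI-11055 point (67.3 CPM) than Enl-T1 point (115 CPM).

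The 3 genes of microRNA production had similar ratios in progenitors. *Drosha* (chromosome 15, 12824815 to 12935291, plus strand) was at 53.6 CPM in Enl-WT, 30.1 CPM in Enl-T1 and 30.1 CPM in Enl-T1 TDI-11055, *Dgcr8* (chromosome 16, 18253948 to 18289246, minus strand) at 41.5, 19.5 and 19.9 CPM, and *Dicer1* (chromosome 12, 104687742 to 104751952, minus strand) at 91.005, 50.5 and 52.5 CPM. The ratios of Enl-T1 over Enl-WT were 0.56 (0.47 to 0.67), 0.47 (0.38 to 0.58) and 0.55 (0.49 to 0.63). With TDI-11055 against untreated Enl-T1 they were 1.00 (0.85 to 1.18), 1.02 (0.83 to 1.25) and 1.04 (0.92 to 1.18). In CPM the treated progenitors were thus close to the untreated mutant, and a return to the Enl-WT level lay outside these intervals. For TDI-11055 over Enl-WT the median log2 ratio of all tested genes was -0.31. Against genes of like exonic length, that log2 ratio was -0.35 for *Dgcr8* and 0.23 for *Dicer1*. The same values for Enl-T1 over Enl-WT were -0.53 and -0.12, so the reading for *Dicer1* depends on the scale.

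*Dgcr8* is itself a microRNA host. Of the 8 genes, *Dgcr8* and *Rest* hold mature microRNAs annotated in RefSeq, 5 in all, placed as follows on GRCm38. Exons and introns are those of GENCODE, which also has a microRNA gene, *Gm47288*, over *Drosha* exons on the same strand. No mature RefSeq form was found in *Drosha*. The sequences are shown because the microprocessor cuts hairpins of this kind, the first of them within the *Dgcr8* transcript itself. Capitals mark the seed (bases 2 to 8), the stretch that pairs with target RNAs, and no seed is shared among the 5.
mmu-miR-1306-5p: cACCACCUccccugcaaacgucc
mmu-miR-1306-3p: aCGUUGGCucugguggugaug
mmu-miR-3618-5p: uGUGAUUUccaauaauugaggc
mmu-miR-3618-3p: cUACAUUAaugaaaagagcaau
mmu-miR-5098: gUUACAUGgugaagcccaguu
The miR-1306 arms lie at chr16:18284288-18284310 (5p) and chr16:18284248-18284268 (3p), in an exon of 4 *Dgcr8* transcripts and in the coding part of 2. The miR-3618 arms lie at chr16:18284602-18284623 (5p) and chr16:18284562-18284583 (3p), in non-coding exons of *Dgcr8*, and miR-5098 lies at chr5:77272767-77272787 in an intron of *Rest*. Mature microRNAs have no poly(A) tail and were not measured, and the counts of the host genes do not give their amounts. *Dgcr8* also shares exonic bases with *Trmt2a* on the opposite strand, so reads there depend on the strand setting of the count, which is not given in the sources used here. The protein-coding *Gm49776* overlaps *Dgcr8* exons on the same strand, but it was not among the counted genes.

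Of 17 listed genes of the wider microRNA pathway, 14 were tested in NP-like cells, 8 had a level more than 1.5-fold below Enl-WT in Enl-T1 and 0 above, beside 32.4% and 6.04% of all genes, with a median log2 ratio of -0.62 against -0.34 for all genes. Under median-of-ratios scaling 3 of the 14 were lower, beside 13.4% of all genes. By the size of their ratios the 8 were led by *Tut7* (0.51), which uridylates let-7 precursors, and by the argonautes *Ago1* (0.53) and *Ago2* (0.53), which carry mature microRNAs. *Ago2* stood at 171, 89.8 and 67.8 CPM and *Tut7* at 106, 54.5 and 49.8 CPM. With TDI-11055 against Enl-T1, 0 of the 14 passed 1.5-fold in either direction, beside 7.33% lower and 6.58% higher among all genes. *Lin28a*, a blocker of let-7 maturation, had 0 UMIs in NP-like cells of each library, and *Lin28b* had 5, 1 and 6 UMIs.

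Of 12 listed host transcripts of microRNAs, 3 were tested. In Enl-T1 1 was lower by more than 1.5-fold and 0 higher, beside 32.4% and 6.04% of all genes. Under median-of-ratios scaling 0 were lower and 1 higher, beside 13.4% and 13.6% of all genes. Their median log2 ratio was 0.14, against -0.34 for all genes. With TDI-11055 over Enl-T1, 2 of the 3, *Mir17hg* and *Mir100hg*, were lower by more than 1.5-fold and 0 higher, beside 7.33% and 6.58% of all genes. *Mir99ahg*, from whose introns let-7c, miR-99a and miR-125b arise, was at 83.9, 52.1 and 65.5 CPM, 0.62-fold in the first comparison. *Mir17hg*, whose exon holds the miR-17 to miR-92a cluster known for driving proliferation, was at 21.1 CPM in Enl-WT, 23.3 CPM in Enl-T1 and 15.1 CPM in Enl-T1 TDI-11055, within counting error in the first comparison (ratio 1.11, 0.87 to 1.42) and lower in the second (0.65, 0.53 to 0.80). The sequences of both hosts are shown for their seeds, in capitals.
mmu-let-7c-5p: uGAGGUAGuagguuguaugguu
mmu-miR-99a-5p: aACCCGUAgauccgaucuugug
mmu-miR-125b-5p: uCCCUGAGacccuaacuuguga
mmu-miR-17-5p: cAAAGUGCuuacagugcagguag
mmu-miR-20a-5p: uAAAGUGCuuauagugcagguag
The miR-17-5p and miR-20a-5p sequences, at chr14:115043684-115043706 and chr14:115044183-115044205, share their seed. The let-7c-5p, miR-99a-5p and miR-125b-5p sequences lie at chr16:77599672-77599693, chr16:77598940-77598961 and chr16:77646279-77646300. The transcript level of a host does not give the level of these mature forms.

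Outside the progenitors *Drosha* over Enl-WT was 0.59-fold in nephron, 0.65-fold in stroma, 0.58-fold in ureteric and 0.61-fold in endothelial cells of Enl-T1, and its TDI-11055 over Enl-T1 intervals held 1 in all 4 lineages. Those of *Dgcr8* held 1 in all 4 as well, at 0.88 (0.74 to 1.03), 1.34 (0.96 to 1.84), 0.99 (0.83 to 1.17) and 0.69 (0.40 to 1.13) in the same order. Within lineages, the classes of *Dgcr8* whose intervals excluded 1 lay on both sides of it, and no difference between classes was tested. *Dgcr8* was at 48.8 CPM in cortical stroma-like cells of Enl-WT, 13.2 CPM in Enl-T1 and 20.7 CPM with TDI-11055, a ratio of 0.27 (0.19 to 0.39) followed by one of 1.57 (1.01 to 2.42). In urothelium-like cells it had 34.6, 12.7 and 25.5 CPM, with ratios of 0.37 (0.23 to 0.60) and 2.00 (1.22 to 3.24). Committed nephron-like cells went the other way with TDI-11055, from 24.0 to 7.22 CPM (21 and 14 UMIs, ratio 0.30, 0.14 to 0.62). *Dicer1* in its highest class, urothelium-like, was at 184 CPM in Enl-WT (157 to 215), 97.3 CPM in Enl-T1 and 122 CPM in Enl-T1 TDI-11055, and none of these 3 intervals overlapped that of another class with at least 50 cells in the same library.

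*Dis3l2* (chromosome 1, 86703808 to 87050095, plus strand) was at 26.9 CPM in NP-like cells of Enl-WT, 16.0 CPM in Enl-T1 and 14.7 CPM in Enl-T1 TDI-11055, from 125, 145 and 166 UMIs. Its ratio was 0.60 (0.47 to 0.76) for Enl-T1 over Enl-WT and 0.92 (0.73 to 1.16) for TDI-11055 over Enl-T1. In stroma it went from 20.7 to 16.3 to 10.1 CPM, where the second ratio, 0.62 (0.42 to 0.89), was below 1 beyond counting error. Among the stromal classes this held in other stroma-like cells (69 and 4 UMIs, 0.28, 0.07 to 0.75), while the intervals held 1 in cortical (0.72), medullary (1.08) and renin/mesangial-like cells (0.99). Other stroma-like cells were 569 of 1396 stromal cells in Enl-T1 and 85 of 270 with TDI-11055. The first stromal ratio, 0.78 (0.60 to 1.03), was within it, and its log2 value of -0.35 became 0.18 when set against genes of like exonic length. Of 15 listed RNA exonucleases 14 were tested, and 5 were lower and 0 higher by more than 1.5-fold in Enl-T1, beside 32.4% and 6.04% of all genes, with a median log2 ratio of -0.29, near that of all genes. The lower ones were led by 3 nucleases, *Dis3l* at 0.42-fold, the exosome subunit *Dis3* at 0.54-fold and the 5′ exonuclease *Xrn1* at 0.56-fold. Under median-of-ratios scaling 1 was lower and 2 were higher, beside 13.4% and 13.6% of all genes. With TDI-11055 over Enl-T1, 1 of the 14 was higher and 0 lower, beside 6.58% and 7.33% of all genes.

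*Trim28* (chromosome 7, 12999114 to 13031035, plus strand) was the only member with higher levels under TDI-11055 in every lineage. In NP-like cells it stood at 252 CPM in Enl-WT, 179 CPM in Enl-T1 and 216 CPM in Enl-T1 TDI-11055, with ratios of 0.71 (0.66 to 0.77) and 1.21 (1.13 to 1.28). The ratio of TDI-11055 over Enl-T1 was 1.20 in nephron, 1.35 in stroma, 1.30 in ureteric and 1.24 in endothelial cells, each with an interval above 1, and it kept its direction under median-of-ratios scaling and against genes of like length. None of these passed 1.5-fold. The Enl-T1 over Enl-WT ratio, 0.78 in nephron, was below 1 in all 4 lineages, but in nephron its log2 value of -0.36 became 0.04 under median-of-ratios scaling. Of 14 partners of *Trim28* in KRAB silencing, 13 were tested in NP-like cells, 5 were lower in Enl-T1 by more than 1.5-fold and 0 higher, a share of lower genes near the 32.4% of all genes. These were led by the imprint-protecting *Zfp57* (13.8, 6.51 and 10.3 CPM over the 3 libraries), the remodeller *Chd4* (783, 391.9 and 277 CPM) and *Morc2a* (42.0, 24.1 and 22.7 CPM). The partners' median log2 ratio was -0.43 against -0.34 for all genes. Under median-of-ratios scaling 2 were lower and 1, *Cbx3*, was higher, beside 13.4% and 13.6% of all genes.

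*Rest* (chromosome 5, 77265491 to 77286432, plus strand) was at 316 CPM in NP-like cells of Enl-WT, 149 CPM in Enl-T1 and 148 CPM in Enl-T1 TDI-11055. The ratio was 0.47 (0.44 to 0.51) for the mutant and 0.99 (0.92 to 1.07) for the inhibitor. It was lower in Enl-T1 in all 4 lineages, at 0.54-fold in nephron, 0.46-fold in stroma, 0.46-fold in ureteric and 0.54-fold in endothelial cells. With TDI-11055 over Enl-T1 its ratio was 0.91 (0.86 to 0.96) in nephron, 1.13 (1.02 to 1.25) in stroma and 0.79 (0.64 to 0.98) in endothelial cells, and differences between lineages were not tested. In ureteric cells *Rest* went from 275 to 126 to 168 CPM, a ratio of 1.34 (1.26 to 1.41) for the inhibitor, and in trunk/collecting duct-like cells from 282 to 127 to 193 CPM (1.52, 1.39 to 1.66).

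Of 11 *Rest* corepressors, all were tested in NP-like cells, and 4 were lower and 0 higher by more than 1.5-fold in Enl-T1. This share was near the 32.4% of all genes. Under median-of-ratios scaling 3 corepressors were lower and 0 higher, beside 13.4% and 13.6% of all genes. They were led by *Rcor2* (43.7, 15.3 and 24.5 CPM, 0.35-fold and then 1.60-fold with TDI-11055), *Ehmt2* (0.51-fold) and *Sin3a* (0.52-fold). Neuronal genes known as *Rest* targets stayed nearly silent, and 2 of 13 reached 5 CPM on average. Of these, *Syt4* reached it only through Enl-T1, where it was highest, so passing the filter was not independent of its ratios. *Syt4*, a synaptotagmin of secretory vesicles, had 1.51 CPM in Enl-WT (7 UMIs), 16.9 CPM in Enl-T1 (153 UMIs) and 4.17 CPM in Enl-T1 TDI-11055 (47 UMIs), an 11.2-fold higher level (5.31 to 28.4) followed by 0.25-fold (0.17 to 0.35). *Bdnf*, a neurotrophin, had 6.45, 4.09 and 7.10 CPM. Only the *Syt4* ratios are given with an interval, so no contrast is drawn between the 2 tested targets. The list of 7 neural and Schwann cell markers summed to 41.1, 44.6 and 41.0 CPM in these cells, with *Foxd3* at 0 in each library and *Sox10* at 0 in Enl-WT and Enl-T1.

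*Amer1* (chromosome X, 95420318 to 95444872, minus strand) had the lowest Enl-T1 over Enl-WT ratio of the 8 genes in progenitors, with an interval that overlapped those of *Rest* and *Dgcr8*. It stood at 66.5 CPM in Enl-WT, 30.03 CPM in Enl-T1 and 25.4 CPM in Enl-T1 TDI-11055, 0.45-fold (0.38 to 0.53) and then 0.85-fold (0.71 to 1.00). Across classes its point value was highest in other stroma-like cells of Enl-WT (87.3 CPM, 71.6 to 105). That interval overlapped those of cortical and medullary stroma-like cells of the library. *Amer1* was low in endothelial cells (18.0, 16.0 and 12.3 CPM). Its Enl-T1 over Enl-WT ratio there, 0.89 (0.59 to 1.33), was within counting error, and the log2 value of -0.17 became 0.14 under median-of-ratios scaling. The share of cells scored female, by *Xist* without Y-linked UMIs, differed between the libraries, at 25.5%, 68.9% and 32.1% of NP-like cells. Within those female cells *Amer1* had 71.2, 31.4 and 26.9 CPM, and within male cells 62.2, 28.9 and 24.0 CPM, so the order of the libraries was the same in each sex. The remaining 7 genes kept the Enl-WT level above the Enl-T1 level in both sexes as well.

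Of 11 listed genes of β-catenin turnover and its readouts 9 were tested in NP-like cells, 5 were lower and 1 higher by more than 1.5-fold in Enl-T1, beside 32.4% and 6.04% of all genes, with a median log2 ratio of -0.71 against -0.34 for all genes. Under median-of-ratios scaling 3 were lower and 1 higher, beside 13.4% and 13.6% of all genes. The scaffolds *Axin1* (44.1, 16.1 and 16.9 CPM) and *Apc* (143, 66.0 and 43.3 CPM) had ratios of 0.37 and 0.46. *Lef1*, a transcription factor that binds β-catenin and is itself induced by Wnt signals, had 5.38 CPM in Enl-WT, 27.7 CPM in Enl-T1 and 7.02 CPM in Enl-T1 TDI-11055, 5.15-fold (3.41 to 8.12) and then 0.25-fold (0.19 to 0.33). *Axin2*, another Wnt readout, was at 22.6, 20.3 and 17.9 CPM and did not pass 1.5-fold in either comparison.

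Genes described as targets of *Wt1* did not move in 1 direction. Of 11 listed genes 9 were tested, and 3 were higher and 2 lower by more than 1.5-fold in Enl-T1 NP-like cells, beside 6.04% and 32.4% of all genes. Under median-of-ratios scaling 3 were higher and 1 lower, beside 13.6% and 13.4% of all genes. The integrin *Itga8*, which progenitors use to signal to the ureteric bud, was at 92.1, 20.3 and 29.7 CPM (0.22-fold, 0.18 to 0.26, then 1.46-fold). *Foxc2*, a forkhead factor of early nephrons and podocytes, was at 36.6, 88.2 and 60.6 CPM (2.41-fold, then 0.69-fold), and the heparan sulfatase *Sulf1* at 4.52, 14.8 and 1.33 CPM (3.27-fold, then 0.09-fold). With TDI-11055 against Enl-T1, 1 of the 9 was higher and 4 lower, against 6.58% and 7.33% of all genes. *Sulf1* reached 5 CPM on average only through Enl-T1, and it is counted among the 3 higher and among these 4 lower. The list's median log2 ratio was -0.05 in the first comparison and -0.54 in the second.

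Among the 8 genes, *Wt1* was the 1 that passed 1.5-fold with TDI-11055 over Enl-T1 in NP-like cells, in the lower direction, where 7.33% of the tested genes were lower by that much and 6.58% higher. The median log2 ratio of the 8 genes was -0.01 and that of all genes 0.01. Of the 8, 3 were higher and 5 lower with the inhibitor, and the intervals of 6 ratios held or touched 1, which leaves *Wt1* and *Trim28*.

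The same 2 comparisons were made within each lineage. In nephron cells 6 of 8 members were lower by more than 1.5-fold in Enl-T1 (38.2% of all genes), in stroma 5 of 8 (29.5%), in ureteric cells 4 of 7 tested (26.8%) and in endothelial cells 3 of 7 (28.8%), and none was higher, beside 5.59%, 6.78%, 5.69% and 5.8% of all genes. *Wt1* was under 5 CPM on average in ureteric and endothelial cells. The median log2 ratios of the 8 genes were -0.81, -0.69, -0.77 and -0.55 in these lineages, against -0.41, -0.31, -0.30 and -0.31 for all genes. With TDI-11055 against Enl-T1, 1 tested member passed 1.5-fold in 1 lineage, *Dis3l2* in stroma, where 12.2% of genes were lower by that much and 11% higher. In nephron 7.33% of genes were lower and 7.27% higher, in ureteric cells 9.75% and 7.67%, and in endothelial cells 18% and 9.44%. The medians were -0.16, 0.07, 0.04 and -0.32.

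**Figure D4:**
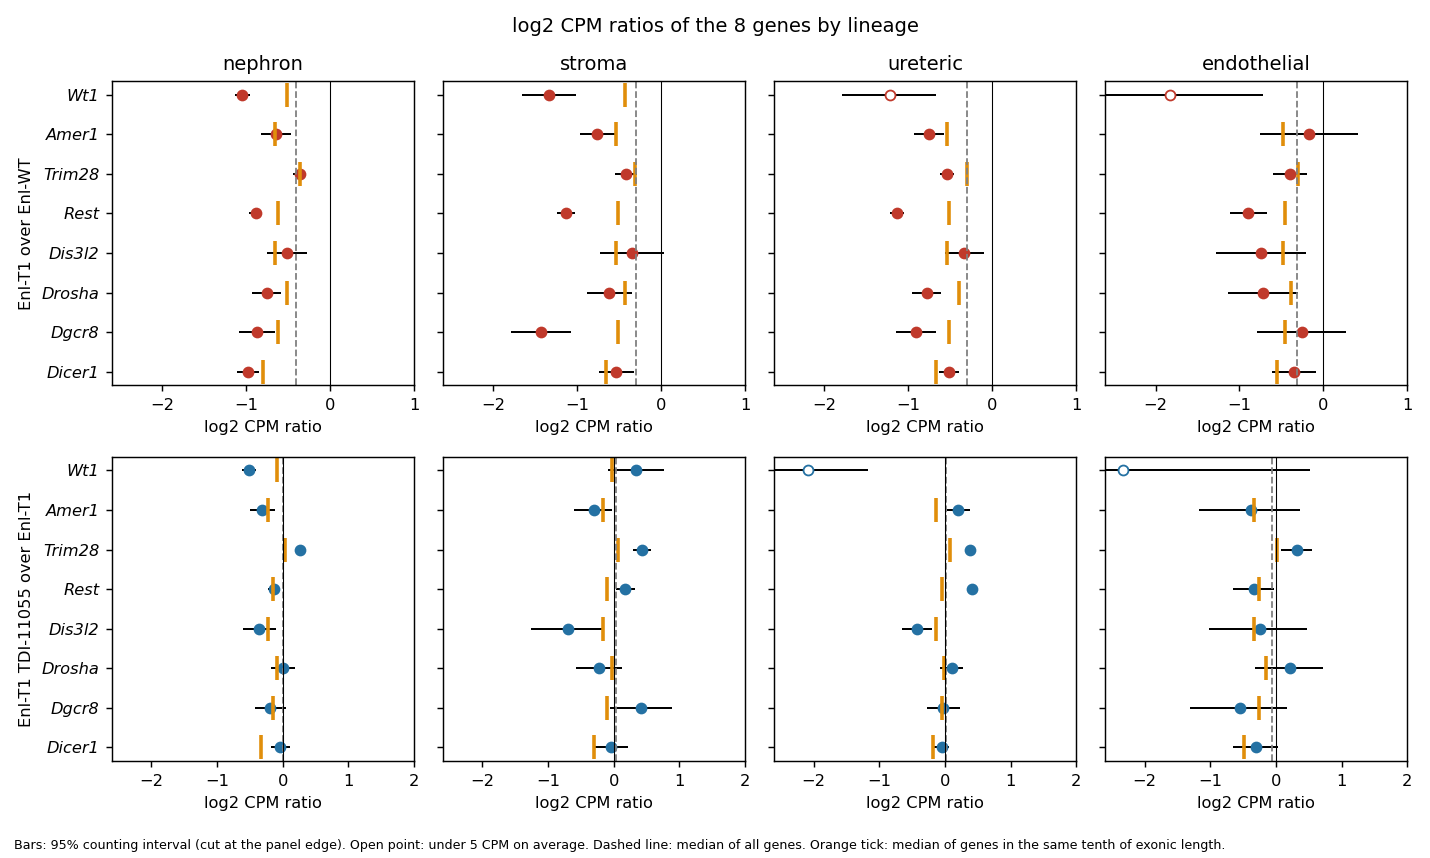
log2 CPM ratios of the 8 genes (rows) in 4 lineages (columns) for Enl-T1 over Enl-WT (top) and TDI-11055 over Enl-T1 (bottom), with 95% counting intervals, the all-gene median as a dashed line and the median of genes of like exonic length as an orange tick. In the top row all points lie below 0, and in the bottom row most lie near 0, with *Trim28* above it in each lineage.

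Exonic length moved with these ratios. In NP-like cells the median log2 ratio of Enl-T1 over Enl-WT went from 0.13 in the decile of genes with the shortest exons (median 1324 bases) to -0.73 in the decile with the longest (13174.5 bases), and the exonic lengths of the 8 genes lay between 4158 bases (*Trim28*) and 16750 bases (*Dicer1*). Against the median of their own decile the members' log2 ratios were -0.13 for *Wt1*, -0.16 for *Trim28*, -0.13 for *Dis3l2*, -0.12 for *Dicer1*, -0.40 for *Drosha* and -0.53 for each of *Rest*, *Dgcr8* and *Amer1*. All 8 stayed below their decile, and none of them by more than 1.5-fold. For TDI-11055 over Enl-T1 the deciles ran from 0.14 to -0.25, and *Wt1* lay 0.71 below its decile on the log2 scale, while *Dicer1* lay 0.31 and *Trim28* 0.22 above theirs. The cause of the relation with length was not tested.

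**Figure D5:**
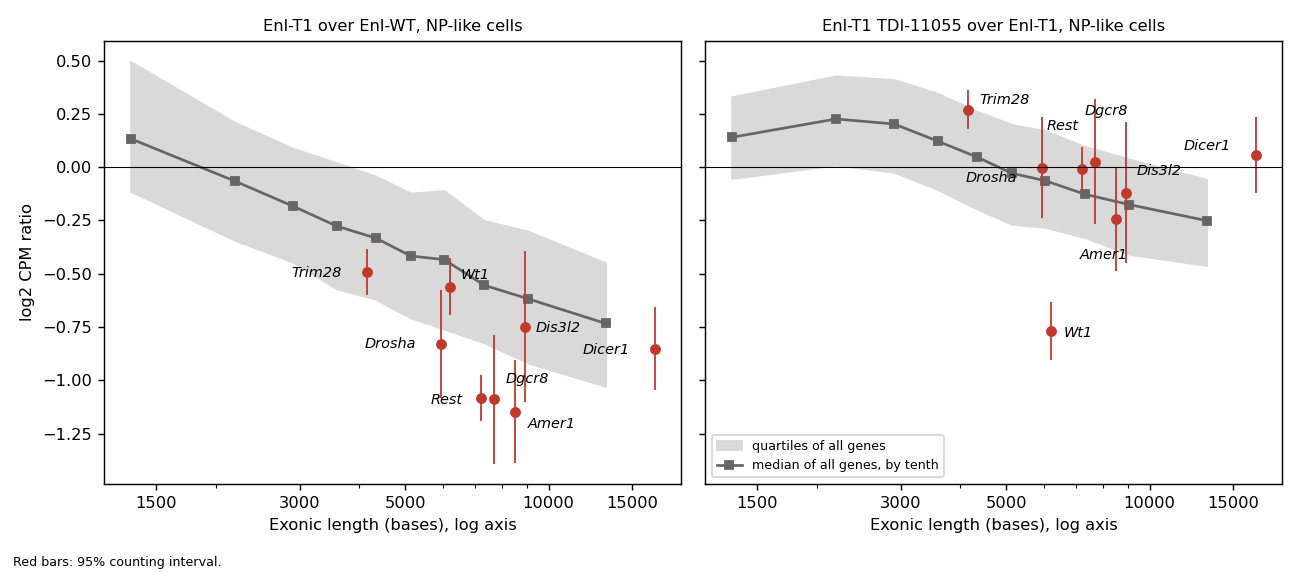
log2 CPM ratio in NP-like cells against exonic length (bases, log axis), for Enl-T1 over Enl-WT (left) and TDI-11055 over Enl-T1 (right), with the medians of deciles of genes and the 8 members in red with 95% counting intervals. The deciles slope from 0.13 to -0.73 on the left, with all 8 members under the median of their own decile, by 0.12 (*Dicer1*) to 0.53 (*Rest*, *Dgcr8* and *Amer1*), and on the right *Wt1* lies 0.71 below its decile.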

How the data were processed

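Raw counts of unique molecular identifiers (UMIs) per gene and barcode were deposited by the authors as 3 matrices, 1 per group, made with Cell Ranger 6.1.2 on mm10 according to the submitters' processing notes. Removal of doublets or of free RNA is not given in the sources used here. Each library held pooled kidneys of several embryos, and no map from cells to embryos was found in the files, so each group was 1 sample. The 8 genes, the 9 pathway lists and the markers were chosen with earlier results of these data known.

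Barcodes were filtered as the study's methods state (1000 to 6000 genes, mitochondrial share at most 10%), and the number left in each library lay within a few cells of the number the study gives. Anchor-based integration in Seurat 5.3.0 (R 4.3.3) used 2000 genes, and cells were clustered on 30 principal components (resolution 0.5), then again within nephron, stroma and ureteric cells (20 components, resolution 0.8). The 8 genes, the listed genes and technical genes, 302 in all, were left out of clustering. Clusters took the class with most markers among their 10 genes of highest fold and, on a tie (also at 0 markers), the highest mean fold of all its markers. They stayed unnamed with under 3 detected markers, where markers of another lineage led, where depth was low and no marker led, or where another class of the lineage had a mean log2 fold higher by at least 1. General stroma gave way to a narrower stromal class with at least 2 leading markers. These rules were set after the clusters were seen. Rebuilt names can make values differ from the study's. Doublets were left in. As an alternative they were removed by Scrublet (scanpy 1.11.5), which marked 136 barcodes in Enl-WT and 0 in each of the other libraries, where the highest scores, 0.8% per 1000 barcodes, were removed instead.

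UMIs were summed per class and library and scaled to counts per 1000000 (CPM). Intervals are exact Poisson, exact for the split of UMIs in a ratio, and Clopper-Pearson for shares, all at 95%, and cover counting error only. All-gene medians used genes whose mean over the 3 libraries reached 5 CPM, with 0.5 UMIs added, and a difference was counted past 1.5-fold. No test was made between groups. Positions and exonic lengths are from GENCODE M21 (GRCm38, the same build as mm10). Mature microRNA sequences are RefSeq's on GRCm38.p6. Besides the 8 genes, up to 3 genes per list were named by the largest absolute log2 ratio of Enl-T1 over Enl-WT in NP-like cells among those past 1.5-fold. *Mir17hg*, *Mir100hg*, *Axin2*, *Cbx3*, *Lin28a*, *Lin28b* and *Wt1os* were named after their values were seen. The genes most like a member were taken by Pearson's r among genes with at least 20 CPM. The sums and intervals were tested on simulated Poisson counts. This checks the calculation only, since the simulated counts held no variation between cells, embryos or libraries.

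Alternatives covered the scaling, the filter on cells and on low counts, doublets, each sex alone, exonic length, single clusters, a gate on *Six2* or *Cited1* and the thinning depth. Leaving out the NP-like cluster led by haemoglobin genes and the unnamed nephron clusters were added after seeing the data.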

Additional observations from a re-analysis of the deposited data

Results flagged for a closer look

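For 3 of the 8 genes the ratio of TDI-11055 over Enl-T1 passed 1.5-fold upward in some cell classes and downward in others. Each of these counting intervals excluded 1. The share of all genes that met this rule in both directions was not computed, so the count of 3 has no background beside it. None of these differences between classes was tested, since each class has 1 library per group, and the cause was not tested. For *Wt1* the ratio was 2.45 in podocyte-like cells, against 0.587 in NP-like, 0.367 in committed nephron-like and 0.283 in distal tubule/loop of Henle-like cells. The first rests on 26 Enl-T1 cells in which the podocyte marker *Podxl* was at 0, and the last on 9 and 6 UMIs. For *Rest*, the repressor of neuronal genes, it was 1.52 in ureteric trunk/collecting duct-like cells, against 0.616 in committed nephron-like and 0.554 in proximal tubule-like cells (45 UMIs in 22 Enl-T1 cells). For *Dgcr8*, the partner of Drosha, it was 1.57 in cortical stroma-like and 2.00 in urothelium-like cells, against 0.301 in committed nephron-like and 0.549 in distal tubule/loop of Henle-like cells. Among all genes tested in these classes, the same ratio passed 1.5-fold upward in 24.8% in podocyte-like, 7.89% in trunk/collecting duct-like, 11.2% in cortical stroma-like and 16.6% in urothelium-like cells. It passed 1.5-fold downward in 7.33% in NP-like, 27.9% in committed nephron-like, 27.8% in proximal tubule-like and 14.7% in distal tubule/loop of Henle-like cells.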

How the results depend on the processing

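Of 148 alternative values of 18 results, 117 stayed within counting error (for a median, the median of the members' interval bounds) or, for a count, within 1.5 times, and 31 moved by more. The 117 include the lineage medians without the filter on low counts. Those medians took all members in any case, so these entries could not change and say nothing about stability. The log2 ratio of *Wt1* in NP-like cells, Enl-T1 over Enl-WT, was -0.56 and became -0.22 by median-of-ratios scaling, -0.32 without mitochondrial, ribosomal protein and haemoglobin genes, -0.13 against genes of like length, -0.79 in the *Ube2c*-led cluster alone and -0.42 in cells gated on *Six2* or *Cited1*. The 6 members past 1.5-fold became 3 by median-of-ratios scaling and 0 against genes of like length. The members' median in nephron cells (-0.81) became -0.41, -0.53 without those 3 gene classes and -0.21 against like length, in stroma (-0.69) -0.39 and -0.21 (scaling, length), in ureteric cells (-0.77) -0.47 and -0.31, and -0.53 in male cells, and in endothelial cells (-0.55) -0.17 against like length. For TDI-11055 over Enl-T1, *Wt1* in NP-like cells (-0.77) was -0.95 as a mean over cells, -0.52 in the *Rrm2*-led and -1.21 in the *Cenpa*-led cluster. The members' median was -0.37 in nephron as a mean over cells, 0.28 in stroma against like length, and in ureteric cells it changed from 0.04 to -0.17 in male cells. The shares of NP-like cells with *Wt1* were 48.4%, 38.6% and 21.1% at 4000 UMIs and 56.3%, 68.9% and 54.4% unthinned. Of the listed genes, 44 passed 1.5-fold in Enl-T1, 25 by median-of-ratios scaling and 12 at 2-fold, and 14 with TDI-11055, 3 at 2-fold. These counts are of NP-like cells, and the numbers tested stand with each list. Of all genes there, 32.4% were lower and 6.04% higher by 1.5-fold in Enl-T1, and 13.4% and 13.6% by that scaling. With TDI-11055 7.33% were lower and 6.58% higher, and shares at 2-fold are not given here. The cause of these changes was not tested beyond what each alternative leaves out. No *Wt1* ratio in NP-like cells changed direction under the alternatives run, and leaving out the haemoglobin-led and the unnamed clusters, added after seeing the data, moved no value past its counting error. No paired analysis was possible because each group is 1 library without a replicate number, and for the same reason no replicate could be left out.

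The limits are those of 1 library per group. Counting error is the only error known, and the median depth of kept cells ran from 5090 to 16931.5 UMIs, so shares of cells were read only after thinning. Classes with few cells in Enl-T1, such as podocyte-like (26 cells) and proximal tubule-like (22 cells), carry wide intervals, and *Dis3l2* and *Dgcr8* rest on few UMIs in most classes.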

Other observations

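Further genes reported in Wilms tumour, outside the 8 above, were mostly lower in NP-like cells of Enl-T1 as well. Of 17 listed genes 15 were tested, and 10 were lower by more than 1.5-fold than in Enl-WT and 0 higher, beside 32.4% and 6.04% of all genes. Their median log2 ratio was -0.84, against -0.34 for all genes. By median-of-ratios scaling 3 were lower and 1, *Mycn*, higher, beside 13.4% and 13.6% of all genes. The list was led by *Nynrin*, with 55.9 CPM in Enl-WT, 24.1 CPM in Enl-T1 and 21.7 CPM in Enl-T1 TDI-11055, by the chromatin regulator *Asxl1* with 80.2, 39.6 and 37.9 CPM, and by *Chd4*, whose values stand above. The tumour suppressor *Trp53* was at 230.2, 128 and 176 CPM. *Mycn*, a growth-promoting transcription factor, was at 24.3 CPM in Enl-WT, 30.5 CPM in Enl-T1 and 33.7 CPM in Enl-T1 TDI-11055. *Mllt1*, which encodes ENL itself, was at 29.5, 21.2 and 19.3 CPM, and its counts do not separate the T1 allele from the other. With TDI-11055 over Enl-T1, 0 of the 15 passed 1.5-fold, beside 7.33% lower and 6.58% higher among all genes.

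In the stroma 11 of the 16 tested genes of the same list were lower by more than 1.5-fold in Enl-T1 (29.5% of all genes), in ureteric cells 9 of 15 (26.8%) and in endothelial cells 6 of 15 (28.8%). Under median-of-ratios scaling 3, 5 and 1 were lower in these lineages, beside 12.7%, 9.95% and 11.4% of all genes. By that scaling 0, 0 and 1 were higher, beside 14%, 12.9% and 13.3%. *Trp53*, *Mycn* and *Mllt1* were named after their values were seen.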
